A study of Mus musculus with 4 samples.

Results

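Interferon-stimulated genes are the genes that a cell switches on when interferon binds its receptors or when a sensor detects foreign nucleic acid. A list of 37 such genes was examined in DFAT cells of the mouse, which are fibroblast-like and are obtained by de-differentiating mature adipocytes, the lipid-storing cells of fat tissue. Of the 37 genes, 35 were measured, out of 18193 genes on the array, and they comprised 5 sensors, 8 transcription factors and 22 effectors. Ifi44 and Isg15 were not analysed here, since no probe set carried either symbol alone. A gene with several probe sets was read by the one of highest mean signal, and that choice applied to 14 of the 35 genes, the other 21 having 1 probe set. For 9 genes every probe set is of a kind that can match more than 1 transcript.

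Each of the 4 groups had 1 Affymetrix array of total RNA. The cells received the ROCK kinase inhibitor Y-27632, an siRNA against Mkl1, a control siRNA, or DMSO, the solvent. All were DFAT cells grown in DMEM containing FBS, and the labels give no dose, duration, mouse strain, siRNA sequence or transfection reagent. Mkl1, present symbol Mrtfa, encodes an actin-regulated partner of the transcription factor SRF. Because no group was replicated, no difference can be set against the spread between replicates, p-values are left out and precision is limited by the number of arrays. Values are log2 RMA signal, differences are the first group minus the second, and genes counted as lower or higher differed at least 2-fold, which is 1 on the log2 scale. The control siRNA array was also set against DMSO, as a difference without either treatment.

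The targeted transcript Mrtfa had a log2 signal of 8.18 with Y-27632, 7.70 with Mkl1 siRNA, 8.55 with control siRNA and 8.32 with DMSO, so Mkl1 siRNA minus control siRNA was -0.85. All 8 markers of fibroblast-like stromal cells had a mean signal above the median of all values (5.69), while 7 of 11 measured macrophage and leukocyte markers and all 6 endothelial markers lay below it. The stromal markers differed by a median of 0.05 for Y-27632 minus DMSO with 2 of 8 below 0, -0.32 for Mkl1 siRNA minus control siRNA with 7 of 8 below 0, and -0.00 for control siRNA minus DMSO with 4 of 8 below 0. Among them the collagen gene Col1a1 stood at -1.05 for Mkl1 siRNA minus control siRNA, and the matrix proteoglycan Dcn at -2.07 for control siRNA minus DMSO. The leukocyte markers averaged 4.98 with Y-27632, 5.00 with Mkl1 siRNA, 5.11 with control siRNA and 4.99 with DMSO. Among them the pan-leukocyte marker Ptprc lay between 3.33 and 3.48, Lyz2 between 5.89 and 6.73 and Cd14 between 7.28 and 7.98. Lyz2 differed by -0.84 for Y-27632 minus DMSO and Cd14 by 0.70 for control siRNA minus DMSO. In these comparisons 6 and 2 of the 11 leukocyte markers were below 0. Of 6 plasmacytoid dendritic cell markers, 3 had a mean signal above the median of all values, and Siglech lay between 4.91 and 5.10. All 8 adipocyte markers were higher with each treatment than with its control, and they averaged 11.00 with Y-27632, 11.31 with Mkl1 siRNA, 9.30 with control siRNA and 9.29 with DMSO. Probe sets that control for 18S rRNA differed by a median of -0.48 for Y-27632 minus DMSO, -0.48 for Mkl1 siRNA minus control siRNA and 0.15 for control siRNA minus DMSO. Whether the differences in stromal, leukocyte or adipocyte markers or in 18S rRNA had a part in the results below was not tested.

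Type I interferon signals through the receptor chains Ifnar1 and Ifnar2 and the kinases Jak1 and Tyk2 to a complex that contains Stat2 and Irf9 and binds interferon-stimulated response elements in promoters. Separately, sensors of foreign RNA or DNA activate Irf3 and Irf7, which turn on interferon and some of the same effector genes directly. Fibroblasts and fat cell precursors carry both routes, and many of the genes are transcribed at a low tonic level without infection.

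The response element was sought in the promoters because the listed genes stood lower together on several arrays. Its core, GAAA followed by any 2 bases and a second GAAA, on either strand and with overlapping matches counted, was searched in the 250 bases before each start in a RefSeq promoter table of build GRCm38.p6. Of the 37 genes, 28 were in the table and 11 of these held the core, which is 39.3%, against 3.46% of all 27025 genes in the table. The 11 were 9 of 17 effectors, 2 of 8 transcription factors and none of the 3 sensors in the table. As the list was made of interferon-stimulated genes, the share of 39.3% describes the list and says nothing about the treatments. The promoters printed here belong to the 6 measured genes with the core whose mean difference over both treatments was lowest, from 20 bases before the first match to the base before the start, with the core in capitals.
Ifit3, chr19:34583353-34583528, plus strand: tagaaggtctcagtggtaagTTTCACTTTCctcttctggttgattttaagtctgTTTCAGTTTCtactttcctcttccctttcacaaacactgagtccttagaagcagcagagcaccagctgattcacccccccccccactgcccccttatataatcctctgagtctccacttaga
Rsad2, chr12:26456453-26456592, minus strand: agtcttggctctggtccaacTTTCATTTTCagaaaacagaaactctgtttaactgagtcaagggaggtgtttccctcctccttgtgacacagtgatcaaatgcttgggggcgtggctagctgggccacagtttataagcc
Gbp2, chr3:142620584-142620662, plus strand: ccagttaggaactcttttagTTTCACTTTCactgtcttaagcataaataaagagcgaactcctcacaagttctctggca
Ifit1, chr19:34640765-34640888, plus strand: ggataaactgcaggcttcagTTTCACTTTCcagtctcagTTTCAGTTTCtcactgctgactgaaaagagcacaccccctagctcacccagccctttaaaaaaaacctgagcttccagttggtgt
Oas3, chr5:120777660-120777754, minus strand: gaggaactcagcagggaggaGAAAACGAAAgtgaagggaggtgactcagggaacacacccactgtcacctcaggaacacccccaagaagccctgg
Stat2, chr10:128270256-128270497, plus strand: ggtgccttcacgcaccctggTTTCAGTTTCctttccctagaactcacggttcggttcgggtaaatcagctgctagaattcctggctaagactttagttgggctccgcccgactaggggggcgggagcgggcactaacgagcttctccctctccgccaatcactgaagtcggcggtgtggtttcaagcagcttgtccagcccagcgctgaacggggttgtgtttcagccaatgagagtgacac
The core began 156 and 122 bases before the start in Ifit3, 104 and 85 in Ifit1, 120 in Rsad2, 75 in Oas3, 59 in Gbp2 and 222 in Stat2. The printed genes comprise the RNA-binding effectors Ifit1 and Ifit3, the antiviral radical-SAM enzyme Rsad2, the GTPase Gbp2, the oligoadenylate synthase Oas3 and the signal transducer Stat2. For Mkl1 siRNA minus control siRNA the 10 measured genes with the core had a median difference of -0.50 and a range of -1.86 to 0.38. The 16 measured genes of the table without it had a median of -0.25 and a range of -1.16 to 0.23, so the ranges overlapped. For Y-27632 minus DMSO these medians were -0.60 and -0.49, and for control siRNA minus DMSO -0.81 and -0.43. A match describes the letters of the window and is no measured binding site, and genes without a match, such as Ifit2, Isg20 and Irf7, were also lower.

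The DMSO array had the highest signal of the 4 arrays for 30 of the 35 genes, against 24.1% of all genes. The Mkl1 siRNA array had the lowest for 27 of 35, against 29.3% of all genes. Y-27632 and control siRNA lay between them for most effectors. The median signal of the 35 genes was 9.63 with Y-27632, 9.00 with Mkl1 siRNA, 9.51 with control siRNA and 9.90 with DMSO. In such bulk samples fewer cells that express a gene and less RNA per cell cannot be told apart.

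**Figure D1:**
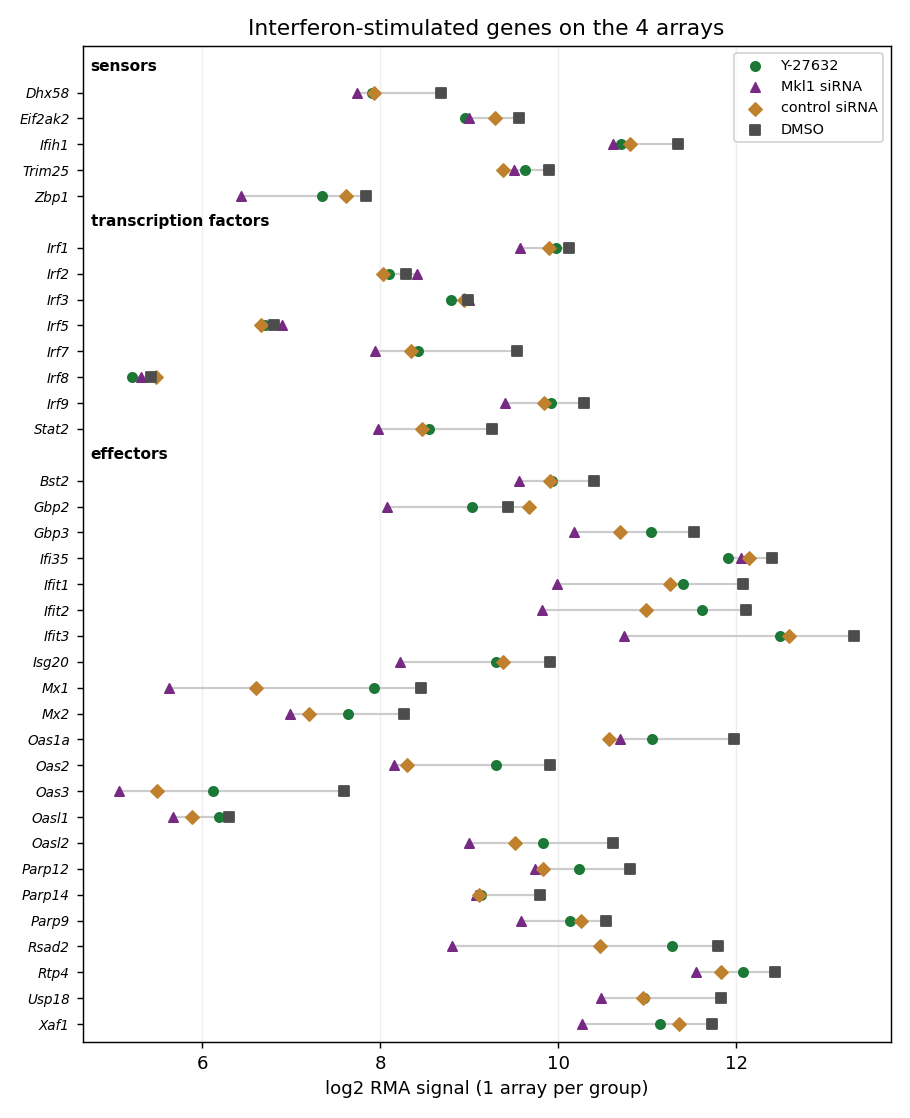
Log2 RMA signal (x axis) of the 35 measured interferon-stimulated genes (rows, by role and name) on the Y-27632, Mkl1 siRNA, control siRNA and DMSO arrays, 1 point per array with a grey line over the range of the 4. The DMSO square is the rightmost point for 30 genes and the Mkl1 siRNA triangle the leftmost for 27; levels of different genes cannot be compared, as each has its own probes.

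The first comparison asked how the genes differed after ROCK inhibition. With Y-27632 all 35 genes, each read by its probe set of highest mean signal, stood below DMSO, against 52.8% of all genes. Among the 14 genes with several probe sets, those of Dhx58 and Irf8 differed in sign. The median difference was -0.53 and the range -1.48 to -0.10, while the median of all genes was -0.01. Most of these differences were small: 2 genes were at least 2-fold lower (0.143% of all genes) and none at least 2-fold higher (0.857%), while 15 of 35 were at least 1.5-fold lower (1.08%). The median was -0.60 for sensors, -0.21 for transcription factors and -0.58 for effectors. The genes past 2-fold were Irf7, the factor that amplifies interferon production, and Oas3, an enzyme activated by double-stranded RNA.

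Irf7 had a signal of 8.42 with Y-27632, 7.94 with Mkl1 siRNA, 8.35 with control siRNA and 9.54 with DMSO, so Y-27632 minus DMSO was -1.11. Oas3 had 6.12 with Y-27632, 5.07 with Mkl1 siRNA, 5.50 with control siRNA and 7.60 with DMSO, and Y-27632 minus DMSO was -1.48. For both, the DMSO array was the one that stood apart on the high side. Oas1a differed by -0.93 for Y-27632 minus DMSO. Usp18, the protease that removes Isg15 from proteins and damps the receptor, differed by -0.87 for Y-27632 minus DMSO, Ifit3 by -0.83 and the RNA helicase Dhx58 by -0.77. The weaker probe sets of Dhx58 stood at -0.09 and 0.24.

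With control siRNA in place of DMSO the direction of the median turned: the median of Y-27632 minus control siRNA was 0.07, and 12 of 35 genes were below 0, against 54% of all genes. By role it was -0.10 for sensors, with 4 of 5 below 0, 0.07 for transcription factors and 0.27 for effectors. None was at least 2-fold lower (0.5% of all genes), and 2 were at least 2-fold higher (1.39%), Mx1 by 1.33 and Oas2 by 1.01. Irf7 then stood at 0.07 and Oas3 at 0.63. The Y-27632 differences against DMSO and those of control siRNA against DMSO share the DMSO array, so they are given side by side only.

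The second comparison asked how the genes differed after Mkl1 knockdown. With Mkl1 siRNA 30 of 35 genes stood below control siRNA, against 53.3% of all genes, with a median of -0.34 and a range of -1.86 to 0.38; the median of all genes was -0.02. The genes were uneven: 8 were at least 2-fold lower (1.14% of all genes), 10 at least 1.5-fold lower (4.08%), and none was at least 2-fold higher (1.2%). The 8 were the sensor Zbp1 and the effectors Ifit1, Ifit2, Ifit3, Rsad2, Gbp2, Isg20 and Xaf1. The median was -0.19 for sensors, -0.25 for transcription factors and -0.49 for effectors.

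The Ifit proteins bind viral RNA and block its translation, and their genes lie close together on chromosome 19, Ifit2 next to Ifit3. Ifit3 had a signal of 12.49 with Y-27632, 10.74 with Mkl1 siRNA, 12.59 with control siRNA and 13.32 with DMSO, and Mkl1 siRNA minus control siRNA was -1.86, a ratio of 0.276. Ifit1 had 11.40 with Y-27632, 9.99 with Mkl1 siRNA, 11.25 with control siRNA and 12.07 with DMSO, a difference of -1.27. Ifit2 had 11.61 with Y-27632, 9.82 with Mkl1 siRNA, 10.98 with control siRNA and 12.10 with DMSO, a difference of -1.16. In all of them the Mkl1 siRNA array was at least 2-fold below each of the other 3 arrays.

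Rsad2, also known as viperin, makes a nucleotide that stops viral polymerases. Its signal was 11.27 with Y-27632, 8.81 with Mkl1 siRNA, 10.47 with control siRNA and 11.80 with DMSO. Mkl1 siRNA minus control siRNA was -1.66 and the 3 probe sets ran from -1.87 to -1.47. Gbp2, a guanylate-binding GTPase that coats intracellular pathogens, had 9.03 with Y-27632, 8.07 with Mkl1 siRNA, 9.67 with control siRNA and 9.44 with DMSO, a difference of -1.60. It was the only effector with a higher signal on the control siRNA array than on the DMSO array, and its 2 probe sets stood at -1.60 and -1.41. Isg20, an exonuclease that degrades RNA, had 9.30 with Y-27632, 8.22 with Mkl1 siRNA, 9.38 with control siRNA and 9.90 with DMSO, a difference of -1.16.

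Probe sets disagreed in size for the other genes past 2-fold. Xaf1, which promotes apoptosis, had 11.14 with Y-27632, 10.26 with Mkl1 siRNA, 11.36 with control siRNA and 11.72 with DMSO, a difference of -1.09, while its weaker probe set stood at -0.14. Zbp1, a sensor of Z-form nucleic acid that triggers cell death, had 7.35 with Y-27632, 6.44 with Mkl1 siRNA, 7.61 with control siRNA and 7.85 with DMSO, a difference of -1.17, and its other probe set stood at -0.31. When the probe sets were averaged, Zbp1 stood at -0.74 and Xaf1 at -0.62, short of 2-fold. Mx1, a dynamin-like GTPase, lay just short of 2-fold at -0.98, and Parp9, an ADP-ribosyltransferase family member, was next at -0.68.

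Several other effectors were close to control siRNA. Oas1a differed by 0.12, Parp14 by -0.03, Parp12 by -0.08, Ifi35 by -0.09 and Oas2 by -0.14. Besides Oas1a, the genes above 0 were the ubiquitin ligase Trim25 at 0.12, Irf3 at 0.06, Irf5 at 0.23 and Irf2, a factor that can oppose Irf1, at 0.38. Among the 14 genes with several probe sets, all probe sets of a gene had the same sign in 9; those of Dhx58, Trim25, Irf3, Irf5 and Irf8 did not. Usp18 differed by -0.48, and Gbp3, a relative of Gbp2, by -0.51.

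**Figure D2:**
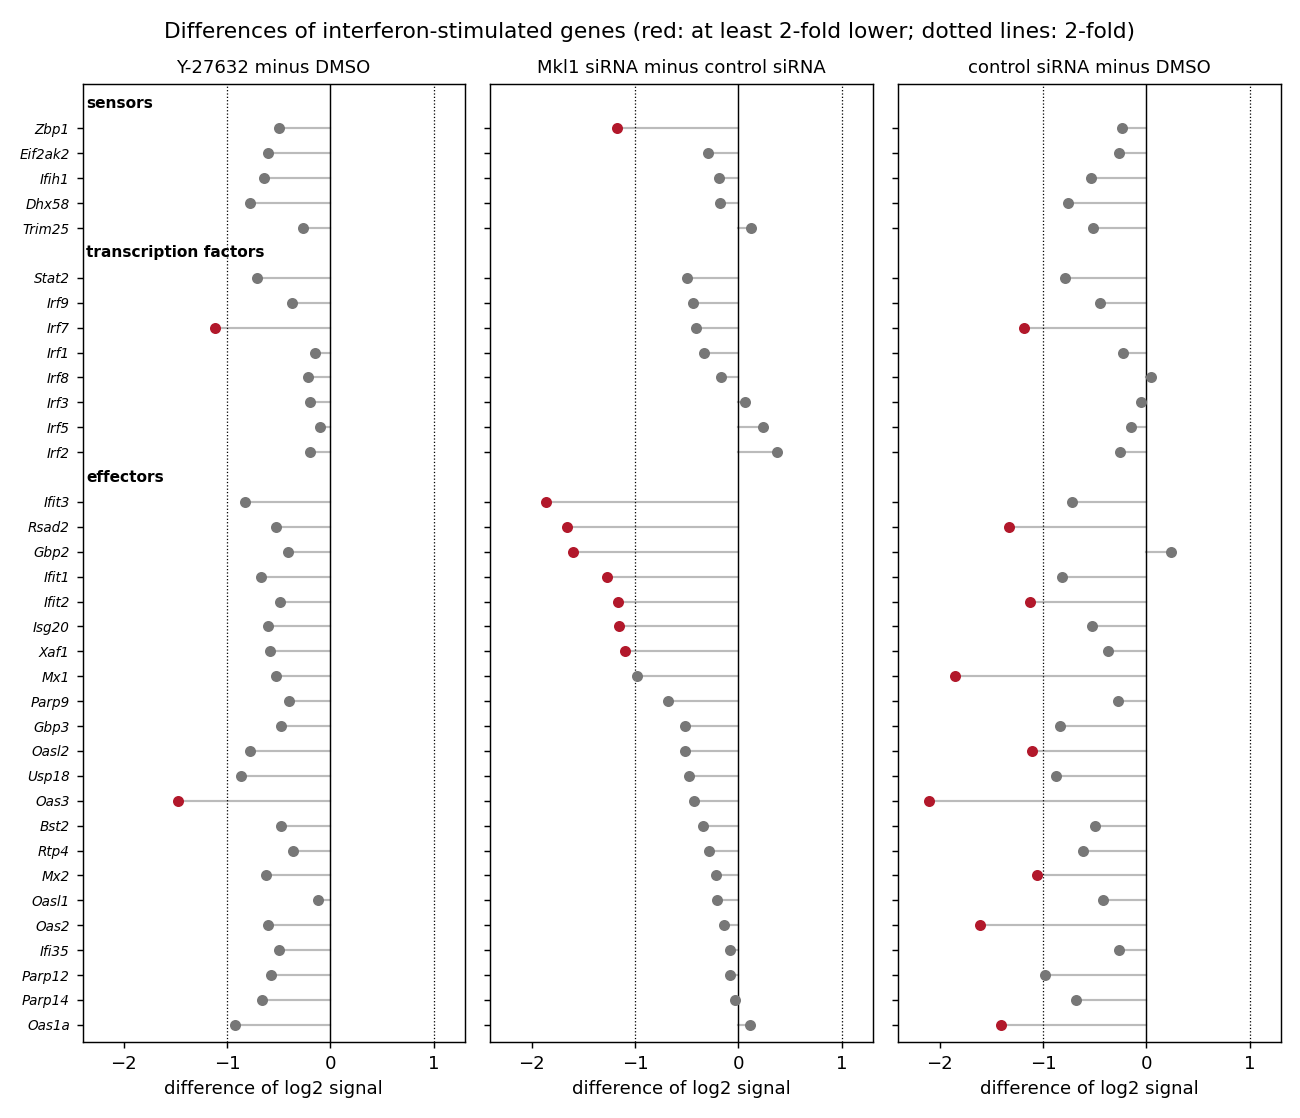
Difference of log2 signal (x axis, 1 array per group, no error available) for the 35 genes (rows, by role and then by the Mkl1 siRNA difference) in the 3 comparisons; red points are at least 2-fold lower and dotted lines mark 2-fold. Ifit3 at -1.86 and Rsad2 at -1.66 lead the Mkl1 siRNA panel, and Oas3 at -1.48 the Y-27632 panel.

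Against the DMSO array, the Mkl1 siRNA signals were lower still: 19 of 35 genes were at least 2-fold lower (2.16% of all genes), 32 were below 0 (50.9%), and the median was -1.28. Rsad2 differed by -2.99, Mx1 by -2.83, Ifit3 by -2.58 and Oas3 by -2.53. The genes of the list that stood at least 2-fold lower against both control arrays were all 8 named above. The share of all genes lower against both was not counted. It cannot exceed the 1.14% that were lower against control siRNA.

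The difference between the controls was as large as that of either treatment. By the labels, the control siRNA cells were transfected and the DMSO cells received the solvent. Transfection, siRNA and solvent cannot be told apart from each other or from variation between cultures or arrays. With control siRNA 33 of 35 genes stood below DMSO, against 48% of all genes, with a median of -0.61 and a range of -2.10 to 0.24; the median of all genes was 0.01. At least 2-fold lower were 9 genes (0.72% of all genes), at least 1.5-fold lower were 18 (2.97%), and none was at least 2-fold higher (0.621%). The median was -0.52 for sensors, -0.24 for transcription factors and -0.83 for effectors. The 9 genes were Irf7 and the effectors Oas1a, Oas2, Oas3, Oasl2, Mx1, Mx2, Ifit2 and Rsad2. In this comparison the probe sets of Dhx58, Irf3 and Irf5 differed in sign, among the 14 genes with several.

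The Oas enzymes make oligoadenylates that activate RNase L, and Oas2 and Oas3 are neighbours on chromosome 5. Oas3, with signals given above, differed by -2.10 for control siRNA minus DMSO. Oas2 had 9.30 with Y-27632, 8.16 with Mkl1 siRNA, 8.30 with control siRNA and 9.90 with DMSO, a difference of -1.61. Oas1a had 11.05 with Y-27632, 10.69 with Mkl1 siRNA, 10.57 with control siRNA and 11.98 with DMSO, a difference of -1.41. For Oas1a and Oas2 both siRNA arrays were low and close to each other.

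Oasl2, an Oas-like protein, had 9.83 with Y-27632, 9.00 with Mkl1 siRNA, 9.51 with control siRNA and 10.61 with DMSO, a difference of -1.10. Its neighbour Oasl1, which in mice restrains translation of Irf7, differed by -0.42. Mx1, which encodes an antiviral GTPase, lies on chromosome 16 with its relative Mx2, a transcribed pseudogene in the RefSeq table. Mx1 had 7.94 with Y-27632, 5.63 with Mkl1 siRNA, 6.61 with control siRNA and 8.46 with DMSO, a difference of -1.85. Mx2 had 7.64 with Y-27632, 6.98 with Mkl1 siRNA, 7.20 with control siRNA and 8.26 with DMSO, a difference of -1.06. For Mx1 both siRNA arrays were low and the Y-27632 and DMSO arrays high. Irf7 differed by -1.19, Ifit2 by -1.12 and Rsad2 by -1.33, while the ADP-ribosyltransferase Parp12 lay just short of 2-fold at -0.98.

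The families were placed side by side, since both siRNA comparisons share the control siRNA array. Ifit1, Ifit2 and Ifit3 differed by -1.27, -1.16 and -1.86 for Mkl1 siRNA minus control siRNA and by -0.82, -1.12 and -0.72 for control siRNA minus DMSO. Oas1a, Oas2 and Oas3 differed by 0.12, -0.14 and -0.43 for Mkl1 siRNA minus control siRNA and by -1.41, -1.61 and -2.10 for control siRNA minus DMSO. The Oas genes differed mostly between the controls, the Ifit genes in both comparisons, and Gbp2 at -1.60 and 0.24 in the Mkl1 siRNA comparison alone.

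With Y-27632, 12 of 35 genes were below control siRNA (54% of all genes), whereas all 35 were below DMSO. Between the treatment comparisons, which share no array, 30 of 35 genes were below 0 in both, against 30.8% of all genes. As all 35 were below DMSO with Y-27632, this count only repeats that of Mkl1 siRNA minus control siRNA. The sizes were only weakly related: over the 35 genes Pearson's r was 0.19 and Spearman's rho 0.26, which describes genes read on the same arrays and not independent of each other. Oas3 and Irf7, lowest with Y-27632, stood at -0.43 and -0.41 with Mkl1 siRNA, and Ifit3, lowest with Mkl1 siRNA, at -0.83 with Y-27632.

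**Figure D3:**
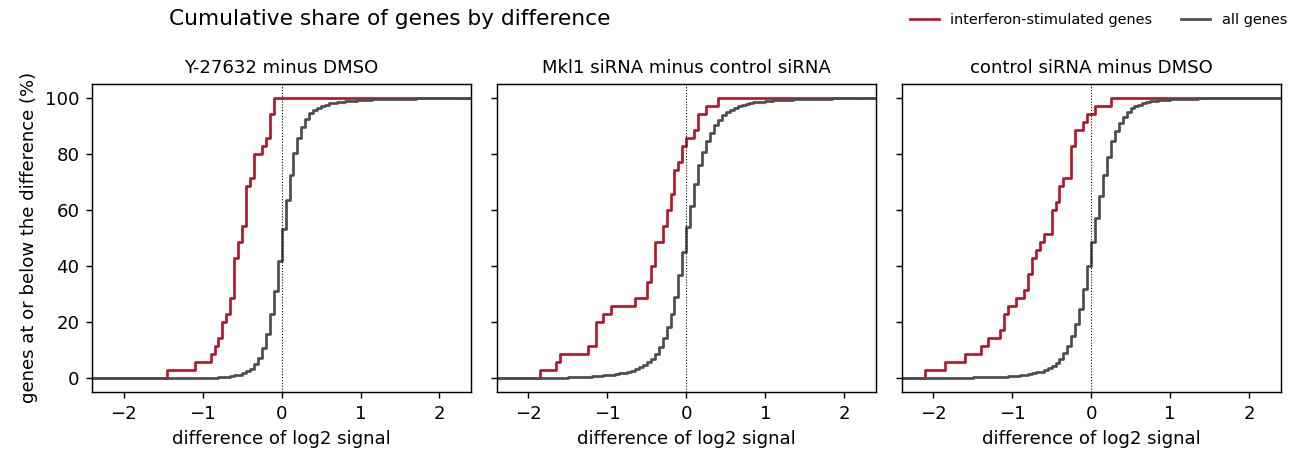
Cumulative percentage of genes (y axis) at or below each difference of log2 signal (x axis) for the 35 interferon-stimulated genes (red) and all 18193 genes (grey) in the 3 comparisons. The red curve lies left of the grey one in every panel, with medians of -0.53, -0.34 and -0.61 against -0.01, -0.02 and 0.01.

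Among the sensors, Ifih1, which detects long viral RNA, had 10.70 with Y-27632, 10.62 with Mkl1 siRNA, 10.81 with control siRNA and 11.34 with DMSO. Trim25 had 9.63 with Y-27632, 9.50 with Mkl1 siRNA, 9.38 with control siRNA and 9.90 with DMSO. Eif2ak2, the RNA-activated kinase PKR that stops translation, had 8.96 with Y-27632, 9.00 with Mkl1 siRNA, 9.29 with control siRNA and 9.56 with DMSO. In each of these the DMSO array was highest; for Ifih1 the other 3 lay close together, while for Eif2ak2 control siRNA lay nearer to DMSO than to the other arrays.

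Among the transcription factors, Irf7 (above) and Stat2 had the lowest differences against DMSO. Stat2, part of the complex that interferon activates, differed by -0.71 for Y-27632 minus DMSO, -0.49 for Mkl1 siRNA minus control siRNA and -0.79 for control siRNA minus DMSO. Irf9, its DNA-binding partner, had 9.92 with Y-27632, 9.40 with Mkl1 siRNA, 9.84 with control siRNA and 10.29 with DMSO. Irf1, an activator induced by interferon gamma, had 9.97 with Y-27632, 9.57 with Mkl1 siRNA, 9.90 with control siRNA and 10.12 with DMSO. Irf3, the constitutively made factor downstream of the sensors, had 8.80 with Y-27632, 9.00 with Mkl1 siRNA, 8.94 with control siRNA and 8.99 with DMSO. By this probe set its 4 arrays were nearly level. The 4 probe sets of Irf3 ran from -0.48 to -0.05 for Y-27632 minus DMSO and from -0.36 to 0.19 for control siRNA minus DMSO. Irf8, a factor of blood cells, was the only member whose signal stayed below the median of all values on every array, between 5.21 and 5.48.

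Other effectors stayed short of 2-fold in all 3 comparisons. Ifi35 had 11.91 with Y-27632, 12.06 with Mkl1 siRNA, 12.14 with control siRNA and 12.40 with DMSO. Rtp4, a receptor transport protein, had 12.08 with Y-27632, 11.55 with Mkl1 siRNA, 11.83 with control siRNA and 12.44 with DMSO. Bst2, the protein tetherin that holds budding virus at the cell surface, differed by -0.47 for Y-27632 minus DMSO, -0.34 for Mkl1 siRNA minus control siRNA and -0.49 for control siRNA minus DMSO. Each was highest with DMSO. Usp18 at -0.87 for both Y-27632 minus DMSO and control siRNA minus DMSO, and Gbp3 at -0.83 for the latter, had larger differences short of 2-fold. The 20 genes of the list that stayed short of 2-fold in these 3 comparisons had medians of -0.44 for Y-27632 minus DMSO, -0.20 for Mkl1 siRNA minus control siRNA and -0.47 for control siRNA minus DMSO. For Mkl1 siRNA minus DMSO, Usp18 and Gbp3 at -1.35, Stat2 at -1.28 and Parp12 at -1.07 did pass 2-fold.

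Upstream genes of the pathway were read in the same comparisons. Of 11 ligand and receptor genes, 4 genes downstream of the receptors (Jak1, Jak2, Tyk2 and Stat3), 12 other sensors and adaptors and 6 brakes, none passed 2-fold in any of the 3, where at most 1.2% of all genes were so far lower, and at most 1.2% so far higher, so the count of 0 sets these genes apart from no others. Ifnar1 had 8.42 with Y-27632, 8.47 with Mkl1 siRNA, 8.47 with control siRNA and 8.40 with DMSO. Ifnar2 had 10.80 with Y-27632, 10.83 with Mkl1 siRNA, 10.79 with control siRNA and 10.75 with DMSO. By these probe sets both receptor chains were level, with differences of at most 0.07 in the 3 comparisons. The other probe set of Ifnar1 stood at 0.25 for Mkl1 siRNA minus control siRNA and -0.19 for control siRNA minus DMSO. The probe sets of Ifnar2 ran from -0.07 to 0.21 for Y-27632 minus DMSO and from -0.01 to 0.43 for control siRNA minus DMSO. Ifnb1, which encodes interferon beta, lay between 4.57 and 4.87, below the median of all values. The ligand and receptor medians were 0.02 for Y-27632 minus DMSO, -0.03 for Mkl1 siRNA minus control siRNA and 0.12 for control siRNA minus DMSO. Of these 11 genes, 6 had a mean signal below the median of all values, which limits what their medians show. The induced sensors Ddx58, which encodes RIG-I, and Tlr3 differed by -0.43 and -0.55 for Y-27632 minus DMSO and by -0.44 and -0.71 for control siRNA minus DMSO.

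A further 41 interferon-induced genes outside the list, of 45 sought, also stood mostly lower. They too were chosen with earlier results of these data known, so they are no independent check. For Y-27632 minus DMSO 36 of 41 were below 0 (52.8% of all genes) with a median of -0.49, and none reached 2-fold (0.143% lower). For Mkl1 siRNA minus control siRNA 36 of 41 were below 0 (53.3%) with a median of -0.36, and 2 were at least 2-fold lower (1.14%). For control siRNA minus DMSO 38 of 41 were below 0 (48%) with a median of -0.68, 8 were at least 2-fold lower (0.72%) and 1 at least 2-fold higher (0.621%).

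The 2 genes low with Mkl1 siRNA were the chemokine Cxcl10 and the mitochondrial nucleotide kinase Cmpk2, which lies beside Rsad2 in the genome. Cxcl10 had 8.80 with Y-27632, 6.31 with Mkl1 siRNA, 8.81 with control siRNA and 9.00 with DMSO, a difference of -2.50, with the Mkl1 siRNA array alone on the low side. Cmpk2 had 9.10 with Y-27632, 7.31 with Mkl1 siRNA, 8.51 with control siRNA and 9.50 with DMSO, a difference of -1.19, or -0.73 as the mean of its probe sets. Between the controls, the guanylate-binding GTPase Gbp6 differed by -1.95, the helicase Ddx60 by -1.73, Trim30a by -1.57, the GTPase Iigp1 by -1.24, the lysosomal reductase Ifi30 by -1.24, Slfn2 by -1.06, Igtp by -1.05 and Ifi27l2a by -1.02. Ifi27 ran the other way at 1.10.

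**Figure D4:**
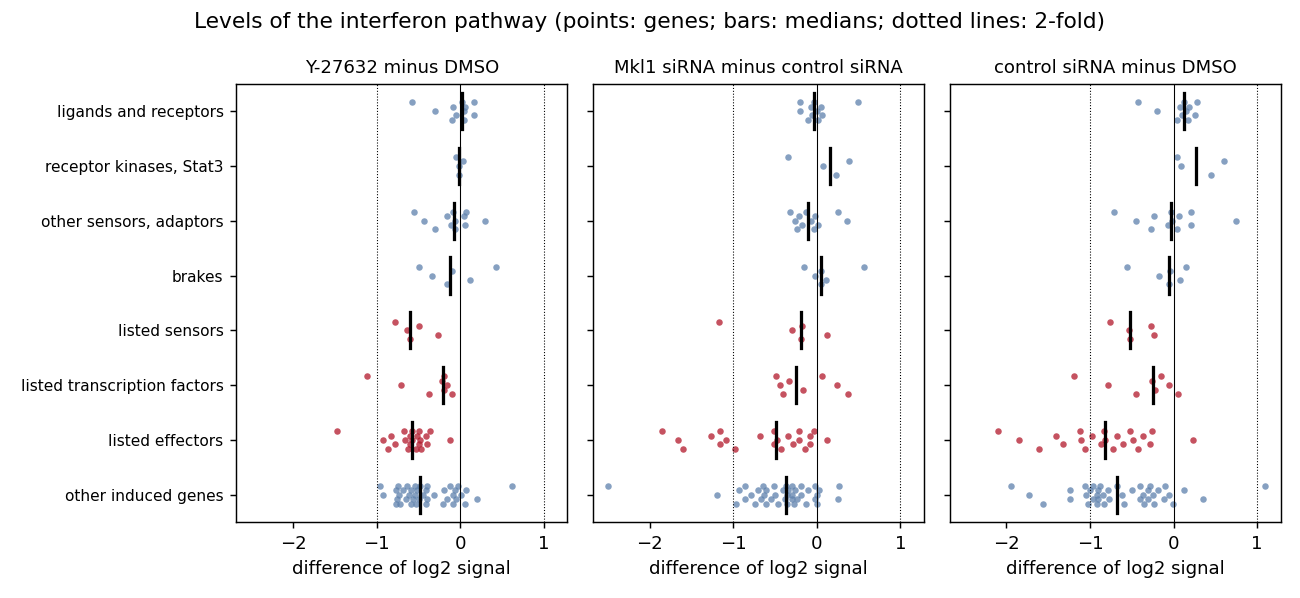
Difference of log2 signal (x axis) for genes of the interferon pathway by level (rows), in the 3 comparisons; points are genes, bars are medians, red marks the listed genes and blue the others. Ligands, receptors, kinases and brakes have medians between -0.12 and 0.27, whereas the listed effectors have medians of -0.58, -0.49 and -0.83. Of the 11 ligand and receptor genes, 6 have a mean signal below the median of all values. The brakes range from -0.50 to 0.43 for Y-27632 minus DMSO and -0.15 to 0.56 for Mkl1 siRNA minus control siRNA. For control siRNA minus DMSO they range from -0.56 to 0.14.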

How the data were processed

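RNA from each group was hybridised to 1 Affymetrix array. The deposited log2 signals were made with RMA, which corrects background, normalizes between arrays and summarises probes, per the submitters' processing notes; the sources used here state neither its version nor whether the 4 arrays were normalized together. Array medians lay between 5.67 and 5.71, and no further normalization was applied. Of 45101 probe sets, 34958 carried 1 gene symbol, 932 several and 9211 none in the platform annotation. Symbols were updated through a RefSeq table of GRCm38.p6, and 18193 genes resulted. No filter on low signals was used for the counts; of the genes, 11600 reach the median of all values (5.69) on their highest array.

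The members and gene lists were chosen with earlier results of these data known. All 37 listed genes could be named; values on all arrays are given for those at least 2-fold different in any of the 3 comparisons and for the 3 of highest mean signal in each role. Of other pathway genes, those at least 2-fold different, Ifnar1 and Ifnar2 qualified by rule, while Ifnb1, Ddx58, Tlr3 and the genes of the closing section were added after their values were seen. With 1 array per group no test was run. The counting was tested on simulated arrays with small noise and known changes larger than 2-fold. That checks the arithmetic and not how often such arrays differ without a treatment. Python 3.11.15, numpy 2.4.6, pandas 2.3.3, statsmodels 0.14.6 and matplotlib 3.10.9 were used. The alternatives were another probe set rule, probe set class, filters, centring, loess smoothing of differences against mean signal (span 0.3), a 1.5-fold threshold and the other control array.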

Additional observations from a re-analysis of the deposited data

How the results depend on the processing

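The results depended most on which control array was used. With control siRNA in place of DMSO, the Y-27632 comparison had 0 genes at least 2-fold lower, 2 at least 2-fold higher and a median of 0.071, and Irf7 stood at 0.072 and Oas3 at 0.63; the cause was not tested. With DMSO in place of control siRNA, the Mkl1 siRNA comparison had 19 genes lower and a median of -1.28. A 1.5-fold threshold gave 15 genes lower for Y-27632 minus DMSO and 18 for control siRNA minus DMSO. Without probe sets that can match several transcripts, 26 genes could be read and 1 was lower for Y-27632 minus DMSO, since Irf7 has no other probe set. Averaging probe sets, subtracting the median difference, the loess and either filter on low signals left each count of lower genes within 1.5 times the reported one, and among genes reaching the median on their highest array the shares lower over all genes were 0.224%, 1.74% and 1.09%. No paired analysis was possible because each group has 1 array and no replicate number is shared. With 1 array per group, variation between cultures or arrays cannot be told apart from the treatments.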

Other observations

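Values of 3 genes that work with Isg15, chosen after they were seen, are given here without a count. Uba7, the enzyme that activates Isg15, had a log2 signal of 8.74 with Y-27632, 7.77 with Mkl1 siRNA, 8.47 with control siRNA and 9.30 with DMSO. Ube2l6, the conjugating enzyme, had 6.99 with Y-27632, 5.85 with Mkl1 siRNA, 6.82 with control siRNA and 7.73 with DMSO. Herc6, the mouse ligase for Isg15, had 7.59 with Y-27632, 6.74 with Mkl1 siRNA, 7.67 with control siRNA and 8.55 with DMSO. In each the DMSO array was highest and the Mkl1 siRNA array lowest, and none of the 3 comparisons reached 2-fold by these probe sets. The 4 probe sets of Herc6 ran from -1.10 to -0.44 for Y-27632 minus DMSO. For control siRNA minus DMSO they ran from -1.09 to -0.27. One of Uba7's 3 probe sets ran the other way for control siRNA minus DMSO, at 0.25.

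Immunity-related GTPases, which attack the vacuoles of intracellular parasites, were less even. Irgm1 differed by -0.62 for Y-27632 minus DMSO, -0.74 for Mkl1 siRNA minus control siRNA and -0.59 for control siRNA minus DMSO. Irgm2 differed by -0.53 for Y-27632 minus DMSO, 0.00 for Mkl1 siRNA minus control siRNA and -0.97 for control siRNA minus DMSO. The membrane proteins Ifitm2 and Ifitm3, which hinder viral entry, hardly differed: Ifitm2 stood at 0.07 for Y-27632 minus DMSO, 0.00 for Mkl1 siRNA minus control siRNA and 0.13 for control siRNA minus DMSO, and Ifitm3 at -0.12, -0.13 and -0.01 in the same order of comparisons. The chemokine Ccl5 differed by -0.69 for Y-27632 minus DMSO, -0.86 for Mkl1 siRNA minus control siRNA and -0.68 for control siRNA minus DMSO.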
